A study of Bos taurus with 14 samples.

Results

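The 7 genes described here form the core of the LIF (leukaemia inhibitory factor) receptor pathway in cattle: the cytokine gene LIF, the receptor genes LIFR, OSMR and IL6ST, the kinase gene JAK1, the transcription factor gene STAT3 and the feedback inhibitor gene SOCS3. They were chosen by gene symbol, and all 7 were found among the 18440 gene names that the files of all 14 libraries share. LIF binds LIFR, which pairs with IL6ST (gp130), the signalling subunit common to the IL6 family of cytokines. OSMR pairs with the same subunit to receive oncostatin M. The receptors carry Janus kinases such as JAK1, which phosphorylate STAT3, and STAT3 in turn activates target genes, among them SOCS3, whose protein shuts the receptor complex down. In the mouse this pathway holds embryonic stem cells in the naive state, whereas primed stem cells of mouse and human are grown without it.

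The study sequenced total RNA of bovine embryonic stem cell (bESC) lines derived from blastocysts and of control samples. Lines A and B were grown on mouse embryonic fibroblasts in CTFR medium, a base devoid of growth factors to which FGF2 and the WNT inhibitor IWR1 were added; LIF is not among the supplements the labels name. Each line was sampled once at passage 10 (P10), line A again at P13, P23, P35 and P45, and line B at P12, P24, P35 and P46. The controls were 2 pools (A and B) of 10 whole in vivo blastocysts, which hold trophectoderm and hypoblast beside the pluripotent epiblast, and 2 lines (A and B) of skin fibroblasts. The labels name no genetic change and no further treatment. The libraries of 1 bESC line are serial passages of 1 culture, so p-values among them measure the spread between passages. In the comparisons of P10 cells, blastocysts and fibroblasts each group has 2 libraries, whose spread is what p-values rest on. How feeder cells were separated before RNA extraction, and whether mouse reads were removed, is not given in the sources used here. Reads of the mouse feeders may therefore be part of the bESC values of every gene below, which was not tested.

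All values are RPKM, reads per length of gene and per mapped read of the library, so levels can be compared between genes within a library. Markers of pluripotent cells were higher at P10 than in both controls, and those of fibroblasts and trophectoderm followed the labels only in part. POU5F1, a factor of pluripotent cells, stood at 223 (line A) and 151 RPKM (line B) at P10. It stood at 48.6 and 38.2 RPKM in blastocyst pools, had a listed 0 in the fibroblasts, and has no value in the later libraries. SOX2, another such factor, stood at 151 and 148 RPKM at P10 and at 154 to 205 RPKM at later passages. In blastocysts it stood at only 2.12 and 3.18 RPKM, near the 0.257 and 1.81 RPKM of fibroblasts. COL1A1, a fibril collagen of fibroblasts, stood at 36.5 and 59.3 RPKM at P10, at 0.089 and 0.28 RPKM in blastocysts and at 1564 and 1706 RPKM in fibroblasts. CDX2, which marks trophectoderm, stood at 13.8 and 15.9 RPKM in blastocysts and was listed at 0 in every bESC and fibroblast library. KRT8 and KRT18, keratins of simple epithelia counted among the trophectoderm markers, were high in the stem cells as well. KRT8 stood at 115 and 150 RPKM at P10, at 154 to 514 RPKM at later passages, at 473 and 306 RPKM in blastocysts and at 7.99 and 0.306 RPKM in fibroblasts. KRT18 stood at 41.9 and 37.9 RPKM at P10, at 80.9 to 274 RPKM at later passages, at 414 and 297 RPKM in blastocysts, and at 0.037 RPKM and a listed 0 in fibroblasts. The summed level of the 5 trophectoderm markers was 157 and 188 RPKM at P10 and 235 to 788 RPKM at later passages. It was 948 and 662 RPKM in blastocysts and 12 and 10.4 RPKM in fibroblasts. Later bESC libraries overlapped blastocysts in this sum, which in bESC libraries was mostly KRT8 and KRT18. GATA3 lay between 0.064 and 0.6 RPKM in bESC libraries, against 12.3 and 12.4 RPKM in blastocysts. TFAP2C lay between 0.025 and 0.174 RPKM in bESC libraries, against 34.9 and 31 RPKM in blastocysts. The summed level of 8 fibroblast markers at P10 was 661 RPKM (line A) and 1012 RPKM (line B), and was 784 to 1094 RPKM at later passages, 2.68 and 3.28 RPKM in blastocysts, and 12735 and 11874 RPKM in fibroblasts. In blastocyst pools A and B the 2 most abundant features took 65.8% and 64% of the summed RPKM, and RPKM values are shares of a library. The median gene was 1.43 log2 higher at P10 than in blastocysts, 1.15 log2 lower in blastocysts than in fibroblasts, 0.23 log2 higher at P10 than in fibroblasts and 0.09 log2 higher at later passages than at P10. Changes below are log2 differences of RPKM + 1, a scale that understates the change of low genes. They are given with their standard error (SE) relative to that median gene, while p-values test the fitted change before the subtraction. In bulk RNA, fewer cells of a type and less RNA per cell cannot be told apart.

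At P10 the stem cells carried the receptor LIFR at several times its fibroblast level, and carried far less OSMR, JAK1, STAT3 and LIF than fibroblasts. Of the 7 genes, 5 were called against fibroblasts (adjusted p under 0.05), LIFR higher and the other 4 lower, where 57.3% of all tested genes were called, 35.4% higher and 21.9% lower. Under all 4 scalings 0 members were called higher and 4 lower, with 24.9% and 20.2% of all genes. Against blastocysts 3 were called, LIFR and SOCS3 higher and STAT3 lower, where 80.3% of all tested genes were called, 73% higher and 7.33% lower. Under all 4 scalings SOCS3, listed at 0 in blastocysts, was called higher and STAT3 lower, with 30.4% and 7.33% of all genes. In blastocysts against fibroblasts 5 were called lower (LIF, OSMR, JAK1, STAT3 and SOCS3), where 74.4% of all tested genes were called, 63.4% in this direction and 11% higher. Under all 4 scalings 4 of these held, STAT3 excepted, with 32.4% of all genes called lower and 11% higher. The count against fibroblasts was 3 without fibroblast line A, and that of blastocysts against fibroblasts was 3 without fibroblast line B. In both cases 5 members were tested, since LIF and OSMR, at 1 RPKM or more in fibroblasts alone among these libraries, no longer passed the filter on low values. LIFR likewise reached 1 RPKM at P10 alone. A gene that passes the filter only through the group where it is high had to differ. These counts, and the p-values of such genes in comparisons with that group, are thus a description. The comparisons share libraries and are not set against each other.

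**Figure D1:**
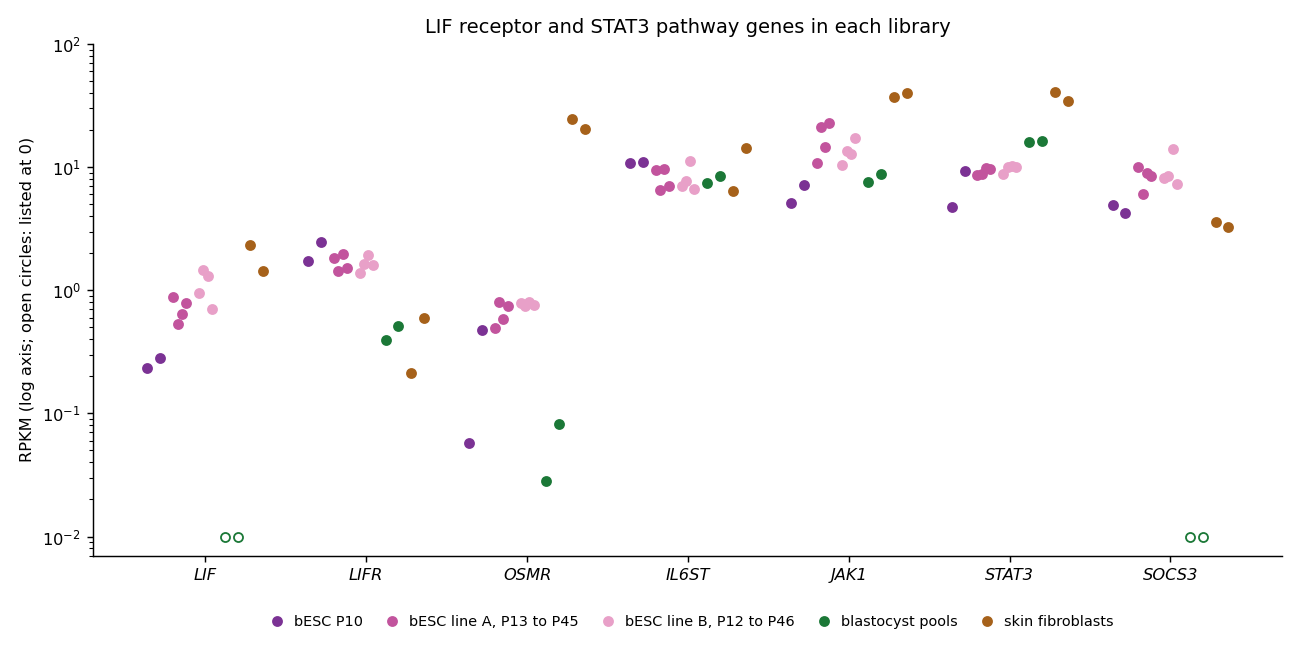
RPKM of the 7 pathway genes (log axis) in each library, by group: bESC at P10, bESC line A and line B at later passages, blastocyst pools and skin fibroblasts. Each point is 1 library and open circles mark genes listed at 0; OSMR lies at 20.5 and 24.5 RPKM in fibroblasts and under 1 RPKM elsewhere, and LIFR lies above 1 RPKM in bESC libraries alone.

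LIF, the ligand, was low everywhere. At P10 its level was 0.234 RPKM (line A) and 0.282 RPKM (line B), it was listed at 0 in both blastocyst pools, and it was 2.315 and 1.44 RPKM in fibroblast lines A and B. The groups did not overlap, but the share of all genes without overlap was not counted. GAPDH, a gene all cells use, has a listed 0 throughout the 14 libraries. Zeros in these files can thus be failed estimates, and changes against a group at 0 are left without a size. Relative to the median gene LIF was 1.41 ± 0.18 (SE) log2 lower at P10 than in fibroblasts (adjusted p = 0.00173), and its mean RPKM was 7.28-fold lower. The difference between P10 and blastocysts was not called (adjusted p = 0.128), whereas blastocysts were lower than fibroblasts (adjusted p = 0.000295).

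LIFR, the receptor subunit that binds LIF, was highest in the stem cells. At P10 it measured 1.74 RPKM (line A) and 2.47 RPKM (line B). It measured 0.397 and 0.510 RPKM in blastocyst pools, and 0.212 and 0.596 RPKM in fibroblast lines. The P10 values lay above those of all 4 controls, and the blastocyst values lay within the range of the fibroblasts. How many of all genes lay above all controls was not counted. Against fibroblasts LIFR stood 0.92 ± 0.20 (SE) log2 above the median gene (adjusted p = 0.00347), a 5.20-fold ratio of mean RPKM; the call was lost under quantile normalization (adjusted p = 0.0674). Against blastocysts the deposited values gave a call of higher (adjusted p = 0.00241), but LIFR stood 0.34 log2 below the median gene of that comparison, the call was lost under each of the 3 other scalings, and its direction turned under quantile normalization. The difference between blastocysts and fibroblasts was not called (adjusted p = 0.808) but was called higher in blastocysts under the 3 other scalings.

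IL6ST, the signal-transducing subunit, had levels that overlapped between cell types. It measured 10.9 and 11.02 RPKM at P10 in lines A and B, 7.37 and 8.47 RPKM in blastocysts, and 6.39 and 14.4 RPKM in fibroblast lines A and B. The fibroblast lines spanned all other values of the first 6 libraries. IL6ST was not called at P10 against fibroblasts (log2 change relative to the median gene -0.06 ± 0.34 SE, adjusted p = 0.70), and the fitted direction turned with quantile normalization, with median-of-ratios scaling and without fibroblast line A. Nor was it called at P10 against blastocysts (adjusted p = 0.281) or in blastocysts against fibroblasts (adjusted p = 0.523) as deposited. Under the 3 other scalings it was called lower at P10 than in blastocysts, by 0.94 to 1.22 log2, and higher in blastocysts than in fibroblasts, by 1.06 to 1.16 log2.

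OSMR, the partner of IL6ST for oncostatin M, showed the widest gap of the 7 genes between cell types. At P10 it measured 0.057 RPKM (line A) and 0.479 RPKM (line B). It measured 0.028 and 0.082 RPKM in blastocyst pools, and 24.5 and 20.5 RPKM in fibroblast lines. Fibroblasts thus lay far above the other libraries, while the P10 and blastocyst values overlapped. OSMR stood 4.46 ± 0.23 (SE) log2 below the median gene at P10 against fibroblasts (adjusted p = 3.86e-05), an 84.0-fold lower mean RPKM, and 3.32 ± 0.23 log2 below it in blastocysts against fibroblasts (adjusted p = 1.44e-05). OSMR passed the filter through the fibroblasts alone, so its p-values against them are a description. P10 against blastocysts was not called (adjusted p = 0.354). The line with more OSMR at P10, line B, also had the higher sum of fibroblast markers, 1012 against 661 RPKM in line A. Later line A libraries ran the other way. At P13 and P35 OSMR was 0.496 and 0.580 RPKM with marker sums of 1001 and 969 RPKM. At P23 and P45 it was 0.807 and 0.740 RPKM with sums of 790 and 823 RPKM. Later line B had its highest OSMR, 0.810 RPKM, and its highest sum, 1094 RPKM, both at P35. The part of these markers in the OSMR level was not tested.

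JAK1, the kinase bound to the receptors, was highest in fibroblasts. It measured 5.07 and 7.13 RPKM at P10 in lines A and B, 7.59 and 8.76 RPKM in blastocyst pools, and 37.3 and 40.3 RPKM in fibroblast lines. The 3 groups did not overlap as deposited, but the share of all genes without overlap was not counted. JAK1 stood 2.73 ± 0.21 (SE) log2 below the median gene at P10 against fibroblasts (adjusted p = 0.000153), with a mean RPKM 6.36-fold lower. In blastocysts against fibroblasts it stood 0.96 ± 0.21 log2 below it (adjusted p = 0.00013). Between P10 and blastocysts the deposited values gave no call (adjusted p = 0.13), but under the 3 other scalings JAK1 was called lower at P10, by 1.76 to 1.98 log2.

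STAT3, the transcription factor the pathway acts through, followed the order P10, blastocyst, fibroblast from low to high. At P10 it measured 4.72 RPKM (line A) and 9.38 RPKM (line B). It measured 16.1 and 16.2 RPKM in blastocyst pools, and 40.9 and 34.5 RPKM in fibroblast lines. The groups did not overlap as deposited, but the share of all genes without overlap was not counted. The P10 lines differed by 1.99-fold between themselves. STAT3 stood 2.55 ± 0.29 (SE) log2 below the median gene at P10 against fibroblasts (adjusted p = 0.000794) and 2.58 ± 0.29 below it at P10 against blastocysts (adjusted p = 0.00924). These calls held under all 4 scalings. In blastocysts against fibroblasts the deposited values gave a call of lower (adjusted p = 0.00954), yet STAT3 stood at the median gene, 0.02 ± 0.29 log2 below it, and turned to 0.16 to 0.33 log2 higher without a call under the other scalings.

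SOCS3, the feedback inhibitor and a target of STAT3, was present in stem cells and fibroblasts and listed at 0 in blastocysts. At P10 its level was 4.89 RPKM (line A) and 4.24 RPKM (line B), and it was 3.61 and 3.26 RPKM in fibroblast lines. The P10 values lay above the fibroblast values, but by less than the fit could call (log2 change relative to the median gene 0.10 ± 0.18 SE, adjusted p = 0.163). Against the blastocyst pools, both at 0, SOCS3 was called higher at P10 (adjusted p = 3.67e-05), and blastocysts were called lower than fibroblasts (adjusted p = 6.86e-05). Both calls held under all 4 scalings. The blastocyst zeros can be failed estimates, as for LIF, and no scaling tells these from a true 0.

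**Figure D2:**
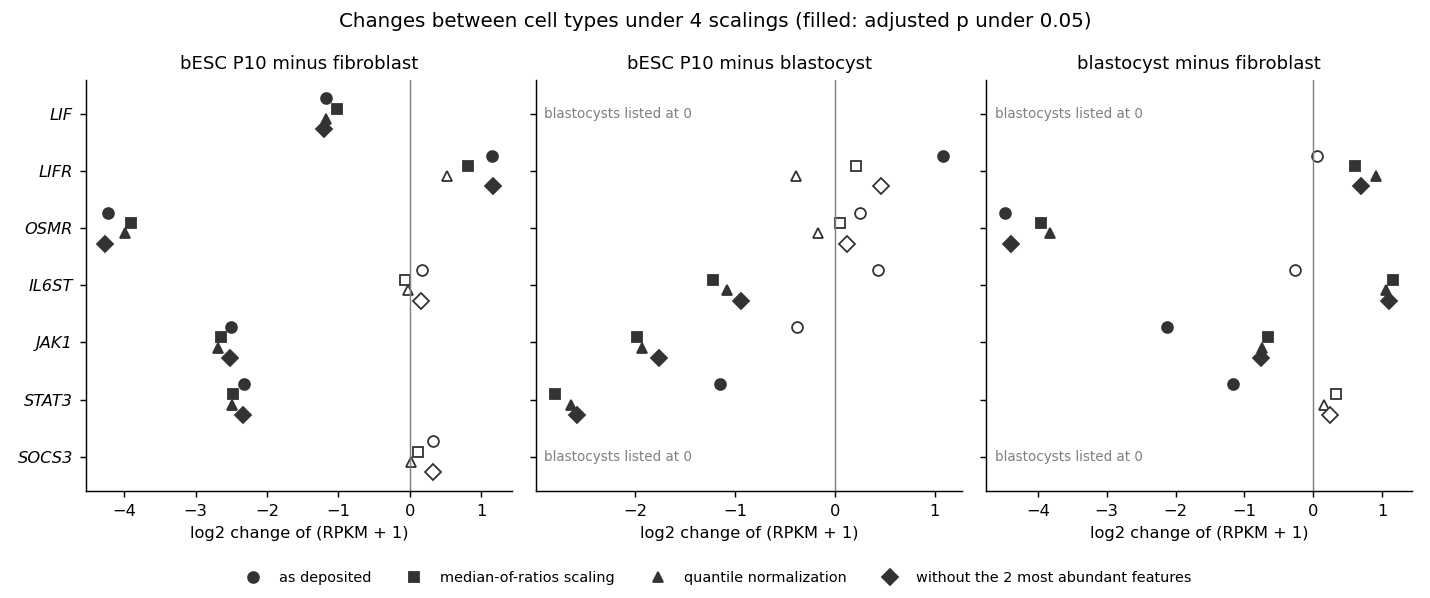
Log2 change of RPKM + 1 of the pathway genes in 3 comparisons (P10 minus fibroblast, P10 minus blastocyst, blastocyst minus fibroblast) under 4 scalings, 1 marker shape each, filled where the adjusted p is under 0.05. LIF and SOCS3 are left out where blastocysts are listed at 0; OSMR, JAK1 and STAT3 lie left of 0 under every scaling against fibroblasts at P10, while IL6ST changes side between scalings in every panel.

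Ratios of 2 genes within a library do not change when all its values are multiplied by 1 factor, which quantile normalization does not do. They are given for the deposited values, as a description without a test. LIFR over IL6ST was 0.159 and 0.224 at P10 in lines A and B and 0.175 to 0.239 at later passages, against 0.0538 and 0.0602 in blastocysts and 0.0332 and 0.0415 in fibroblasts. All 10 bESC libraries lay above all 4 controls. OSMR over LIFR was 0.0328 and 0.194 at P10, 0.27 to 0.574 at later passages and 0.0705 and 0.161 in blastocysts, against 116 and 34.5 in fibroblasts. LIFR was thus the more abundant of this receptor pair in every bESC and blastocyst library, and OSMR in both fibroblast libraries. At P10 SOCS3 over STAT3 was 1.04 (line A) and 0.452 (line B). It was 0.69 to 1.39 at later passages, against 0.0882 and 0.0945 in fibroblasts, with SOCS3 listed at 0 in blastocysts. Every bESC library had more SOCS3 per STAT3 than the fibroblasts.

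**Figure D3:**
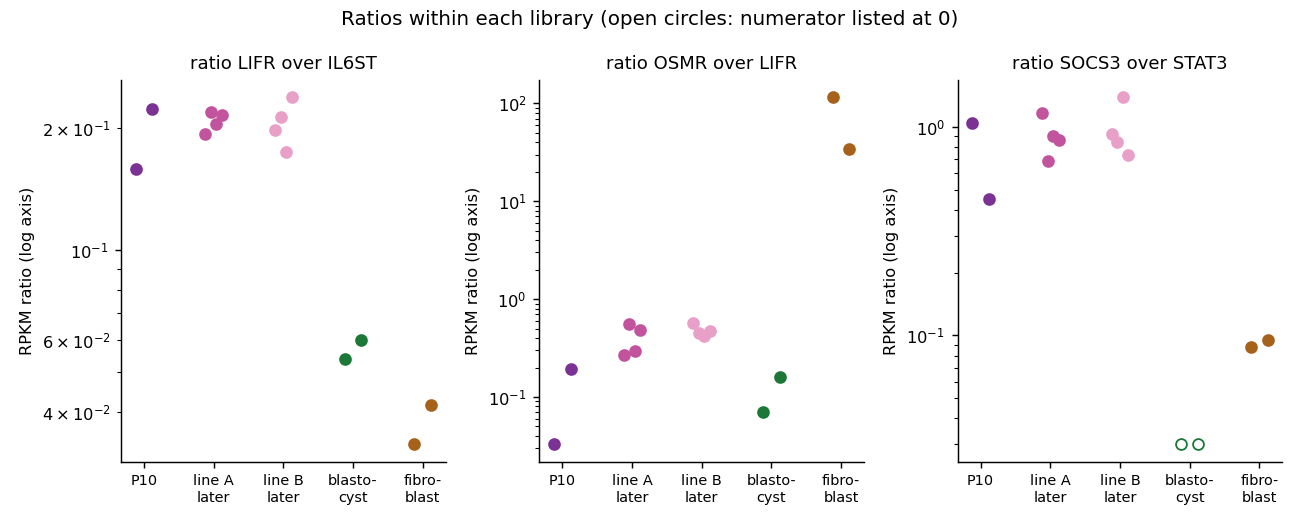
Ratio of RPKM values within each library (log axis) for LIFR over IL6ST, OSMR over LIFR and SOCS3 over STAT3, by group, 1 point per library, with open circles where the numerator is listed at 0. The 10 bESC libraries lie between 0.159 and 0.239 for LIFR over IL6ST and between 0.452 and 1.39 for SOCS3 over STAT3, above the fibroblasts in both panels.

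From P12 to P46 no pathway gene passed the test for a line difference or a trend with passage. In the 8 later libraries the reads behind each value could be recovered from the steps between values, as the smallest whole numbers that give all 8 values of a gene. LIF rested on 29 to 84 reads per library, OSMR on 54 to 107, SOCS3 on 143 to 346, LIFR on 160 to 224, IL6ST on 648 to 1157, STAT3 on 1083 to 1563 and JAK1 on 1728 to 3522. The Poisson intervals of these counts, at the 95% level, cover counting error only. The spread between the 8 libraries was larger than counting gives for every gene. It was 29.7% of the mean against 2.12% from counting for JAK1, and 6.97% against 2.73% for STAT3.

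LIF measured 0.874, 0.534, 0.637 and 0.790 RPKM in line A at P13, P23, P35 and P45, and 0.957, 1.45, 1.31 and 0.706 RPKM in line B at P12, P24, P35 and P46. The lines overlapped, and line A was 0.29 ± 0.15 (SE) log2 lower as fitted without a call (adjusted p = 0.734). JAK1 measured 10.8, 21.1, 14.6 and 22.7 RPKM in line A and 10.5, 13.6, 12.8 and 17.3 RPKM in line B over the same passages. In each line its lowest value came at the earliest of these passages and its highest at the latest. The fitted slope of JAK1 was 0.20 ± 0.07 (SE) log2 per 10 passages, the smallest p of the members tested (unadjusted p = 0.0206), and did not pass adjustment over all genes (adjusted p = 0.961). The line difference of JAK1 was 0.30 ± 0.17 log2 (adjusted p = 0.734).

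STAT3 was the steadiest of the 7 genes. It measured 8.56, 8.78, 9.90 and 9.73 RPKM in line A and 8.79, 9.99, 10.2 and 10.0 RPKM in line B. Its slope was 0.06 ± 0.03 log2 per 10 passages (adjusted p = 0.961). OSMR lay between 0.496 and 0.810 RPKM in all 8 libraries and was not tested, since it reached 1 RPKM in no bESC library. Of the 6 members tested, limma called 0 between lines, where 0.0156% of all tested genes (2 genes, both lower in line A) were called, 0.00782% under all 4 scalings, and 755 had an unadjusted p under 0.05. For the slope 0 of 6 members and 0.00% of all genes were called, with 494 genes at an unadjusted p under 0.05, and for the difference of slopes between lines likewise 0 of 6 and 0.00%, with 83 such genes.

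IL6ST, LIFR and SOCS3 each had their 3 highest later values in the same 3 libraries, line A at P13 and P35 and line B at P35. For IL6ST these were 9.45, 9.66 and 11.1 RPKM, with 6.54 to 7.66 RPKM in the other 5. For SOCS3 they were 10.1, 8.98 and 14.2 RPKM, with 6.06 to 8.43 RPKM in the other 5. For LIFR they were 1.84, 1.98 and 1.94 RPKM, with 1.38 to 1.64 RPKM in the other 5. The same 3 libraries had the highest scores on the first principal component of all other genes (52.6% of the variance), at 33.2, 26.6 and 7.52, with the other 5 between -6.85 and -19.4. They also had the 3 highest sums of fibroblast markers of the later libraries, 1001, 969 and 1094 RPKM, with 784 to 823 RPKM in the other 5. VIM made up most of these sums, at 713, 654 and 818 RPKM, with 523 to 605 RPKM in the other 5. LUM was also highest in these 3 libraries, but the other fibroblast markers did not share this order. COL3A1 measured 42.6 and 54.1 RPKM in line A at P13 and P35, but 15.3 RPKM, its lowest later value, in line B at P35. The part of the component or of the markers in the 3 genes was not tested. This grouping was chosen after the values were seen.

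**Figure D4:**
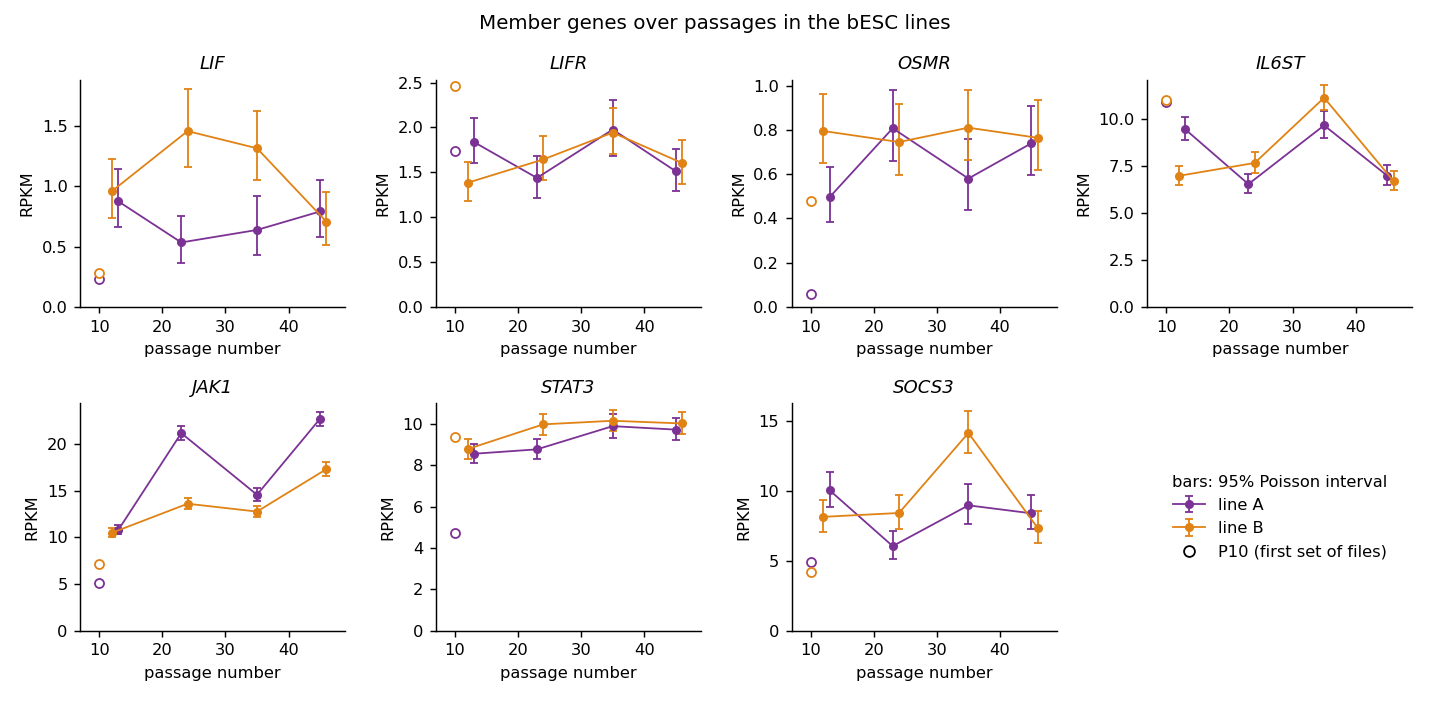
RPKM of the 7 pathway genes by passage number in bESC lines A and B. Filled points with lines are the later libraries with 95% Poisson intervals of the recovered reads, and open points are P10 from the first set of files; JAK1 reaches 22.7 RPKM in line A at P45 and 17.3 RPKM in line B at P46, while STAT3 stays between 8.56 and 10.2 RPKM.

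Later passages had more LIF, JAK1 and SOCS3 than P10. The P10 and later files come in separate sets with different lists of features, so passage and file set cannot be told apart in this comparison. LIF was 0.908 ± 0.324 RPKM at later passages (SD, n = 8) and 0.258 ± 0.0339 RPKM at P10 (SD, n = 2), 0.50 ± 0.16 (SE) log2 above the median gene (adjusted p = 0.0217). JAK1 was 15.4 ± 4.57 RPKM at later passages and 6.10 ± 1.45 RPKM at P10, 1.09 ± 0.22 above it (adjusted p = 0.00367). SOCS3 was 8.95 ± 2.40 RPKM at later passages and 4.57 ± 0.462 RPKM at P10, 0.72 ± 0.23 above it (adjusted p = 0.0248). None of the 3 genes overlapped between the groups, but the share of all genes without overlap was not counted. LIF reached 1 RPKM in 2 libraries, both of later passages, and passed the filter through them alone, so its p-value is a description.

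STAT3 was 9.49 ± 0.661 RPKM at later passages and 7.05 ± 3.29 RPKM at P10 and was not called (adjusted p = 0.0508). Its later values included that of line B at P10. LIFR (1.67 ± 0.228 RPKM later, 2.10 ± 0.515 RPKM at P10, adjusted p = 0.268) and IL6ST (8.14 ± 1.71 RPKM later, 10.96 ± 0.087 RPKM at P10, adjusted p = 0.125) were not called either. OSMR was higher in each later library, at 0.496 RPKM or more, than at P10, at 0.479 RPKM or less, and was not tested. Of the 6 members tested 3 were thus called, all higher, where 35.1% of all tested genes were called, 25.9% higher and 9.16% lower. JAK1 and SOCS3 were called under all 4 scalings, with 16.4% of all genes called higher. No member was called, a count of 0, when line A at P10 was left out or when only P12 and P13 were set against P10. Markers moved in the same comparison. Of the 8 fibroblast markers 4 were called higher at later passages, with summed levels of 784 to 1094 RPKM there and 661 and 1012 RPKM at P10. Both trophectoderm markers that could be tested, KRT8 (adjusted p = 0.0095) and KRT18 (adjusted p = 0.00156), were called higher. The others, CDX2, GATA3 and TFAP2C, stayed under 1 RPKM in every bESC library and were not tested. Of the 4 pluripotency markers tested 2 were called lower, SALL4 and LIN28B. SALL4 stood at 27.2 to 40.4 RPKM at later passages and 58.2 and 51.5 RPKM at P10 (adjusted p = 0.00104). LIN28B stood at 32.6 to 54.6 RPKM and 65.6 and 56.0 RPKM (adjusted p = 0.0164). The other 2, SOX2 and DNMT3B, were not called and did not fall. SOX2 stood at 154 to 205 RPKM at later passages and 151 and 148 RPKM at P10. DNMT3B stood at 72.2 to 150 RPKM and 109 and 67.6 RPKM. The part of these markers in the member changes was not tested.

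Other genes of the pathway were read from 4 lists. As among the members, some called genes reached 1 RPKM only in the group where they are high and so entered the test through it. These were CNTFR, JAK3 and SOCS1 (P10), TFCP2L1 (blastocysts) and MYC and BCL3 (fibroblasts) in the first 6 libraries, and IL11, CISH and MYC (later passages) among the bESC libraries. The counts over the lists, and the p-values of these genes, are thus descriptions. Of the IL6 family ligands and receptors, 8 of 13 were measured at P10 and in the controls and 4 could be tested. At P10 against fibroblasts 1 was called higher and 1 lower, with 35.4% and 21.9% of all genes. Against blastocysts 3 were called higher at P10 and 1 lower, with 73% and 7.33%. Blastocysts against fibroblasts gave 1 higher and 2 lower, with 11% and 63.4%. All held under all 4 scalings, where the shares were 24.9% and 20.2%, 30.4% and 7.33%, and 11% and 32.4%. CNTFR, the receptor for ciliary neurotrophic factor, which also signals through LIFR and IL6ST, measured 27.4 and 45.3 RPKM at P10, against 0.038 RPKM and a listed 0 in blastocyst pools and 0.039 RPKM and a listed 0 in fibroblasts. It was called higher at P10 against fibroblasts (adjusted p = 3.37e-05) and against blastocysts (adjusted p = 1.44e-05). At later passages it stayed between 27.3 and 50.2 RPKM, so that CNTFR was 15.8 to 25.8 times as abundant as LIFR in all 10 bESC libraries. CLCF1, a ligand of the same receptor, measured 5.67 and 4.78 RPKM at P10, 0 and 0.078 RPKM in blastocysts, and 18.7 and 11.8 RPKM in fibroblasts. It was called lower at P10 than in fibroblasts (adjusted p = 0.00471), higher at P10 than in blastocysts (adjusted p = 0.000131) and lower in blastocysts than in fibroblasts (adjusted p = 2.92e-05).

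IL6R, the receptor for IL6, was highest in blastocysts. It measured 1.92 and 4.45 RPKM at P10, 9.23 and 9.58 RPKM in blastocysts, and 1.65 and 1.84 RPKM in fibroblasts. It was called lower at P10 than in blastocysts (adjusted p = 0.00547) and higher in blastocysts than in fibroblasts (adjusted p = 0.00129). IL11RA, the receptor for IL11, measured 11 and 15.3 RPKM at P10, 1.27 and 0.495 RPKM in blastocysts, and 14.8 and 8.48 RPKM in fibroblasts, and was called higher at P10 than in blastocysts (adjusted p = 0.000253) and lower in blastocysts than in fibroblasts (adjusted p = 0.000383). IL11 itself measured 0.724 to 2.29 RPKM at later passages against a listed 0 (line A), which can be a failed estimate, and 0.226 RPKM (line B) at P10. OSM, the ligand of OSMR, was listed at 0 in every library.

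**Figure D5:**
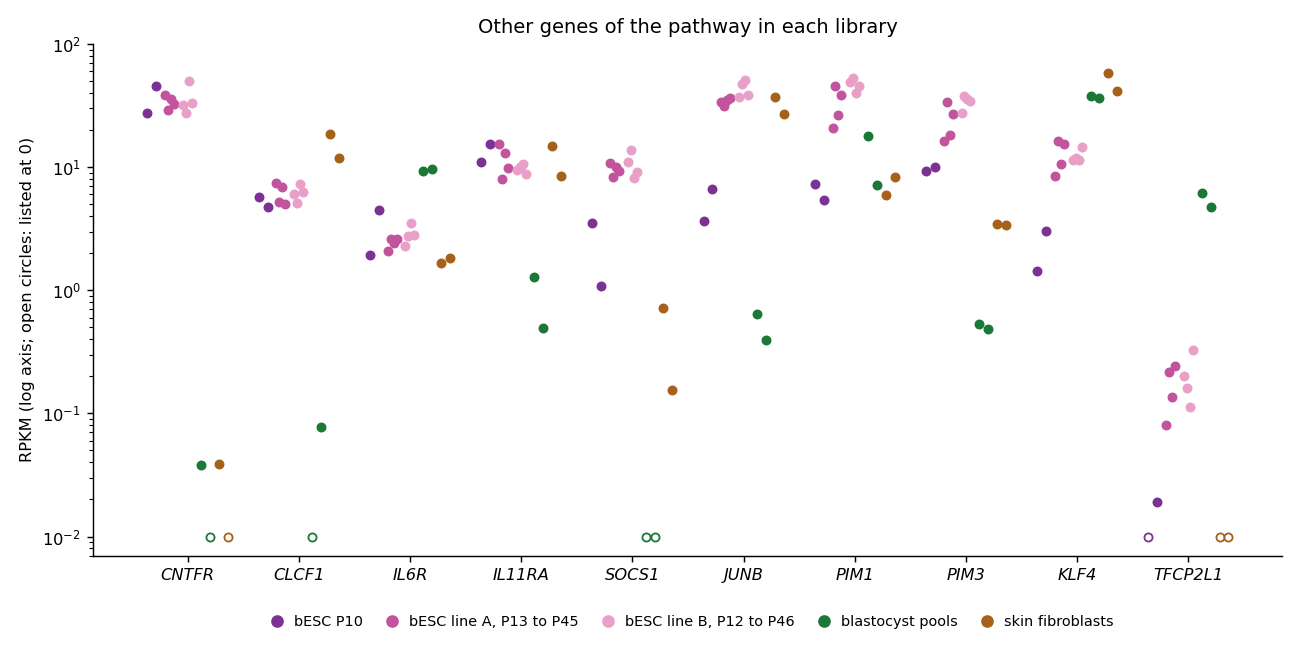
RPKM (log axis) of 10 other genes of the pathway in each library, by group, 1 point per library, with open circles for genes listed at 0. CNTFR lies between 27.3 and 50.2 RPKM in bESC libraries and near or at 0 in the controls, and JUNB, PIM1, PIM3, SOCS1 and KLF4 lie higher at later passages than at P10.

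Of the other JAK and STAT genes 8 were tested. At P10 against fibroblasts 1 was called higher and 4 lower (list median -0.60 log2, all genes 0.23), with 35.4% and 21.9% of all tested genes, and these calls held under all 4 scalings. JAK3, which serves cytokine receptors of blood cells, measured 1.29 and 1.97 RPKM at P10 and 0.03 and 0.057 RPKM in fibroblasts (adjusted p = 0.000818). STAT5A measured 1.06 and 2.04 RPKM at P10 and 14.1 and 10.9 RPKM in fibroblasts (adjusted p = 0.000417), and STAT6 8.53 and 12.6 RPKM at P10 and 50.1 and 41.8 RPKM in fibroblasts (adjusted p = 0.000568). Against blastocysts 7 of 8 were called higher at P10 and 0 lower (list median 1.73 log2, all genes 1.43), where 73% of all tested genes were called higher. Only 2 of them were called under all 4 scalings, with 30.4% of all genes. STAT6 measured 0 and 0.059 RPKM in blastocysts (adjusted p = 3.01e-05). TYK2, a Janus kinase that also serves this receptor family, measured 7.47 and 5.60 RPKM at P10 and 1.05 and 0.76 RPKM in blastocysts (adjusted p = 0.000319). Blastocysts against fibroblasts gave 7 of 8 called lower, 4 of them under all 4 scalings, with 63.4% and 32.4% of all genes. At later passages 1 of 7 tested, STAT5A, was called higher than at P10 (adjusted p = 0.0497), and only under 2 scalings.

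Of the inhibitors and adaptors 15 were tested. At P10 against fibroblasts 6 were called higher and 1 lower (list median 0.55 log2, all genes 0.23), with 35.4% and 21.9% of all genes. Of these, 4 higher and 1 lower held under all 4 scalings, with 24.9% and 20.2% of all genes. PTPN1, a tyrosine phosphatase that acts on Janus kinases, measured 29.5 and 22.0 RPKM at P10 and 6.61 and 6.46 RPKM in fibroblasts (adjusted p = 0.00238). SOCS6 and SOCS7, of the same family as SOCS3, measured 4.13 and 3.58 RPKM and 6.38 and 4.69 RPKM at P10, against 0.602 and 1.28 RPKM and 1.39 and 1.76 RPKM in fibroblasts (adjusted p = 0.00225 for SOCS6 and 0.00237 for SOCS7). SOCS5 was the exception, at 3.86 and 6.29 RPKM at P10 and 24.5 and 29.4 RPKM in fibroblasts (adjusted p = 0.000887). Against blastocysts 9 of 15 were called higher at P10 and 1 lower (list median 0.82 log2, all genes 1.43), with 73% and 7.33% of all genes. Of these, 4 higher and 1 lower held under all 4 scalings, with 30.4% and 7.33% of all genes. PIAS3, an inhibitor of STAT3, measured 15.5 and 15.3 RPKM at P10 and 0.659 and 0.856 RPKM in blastocysts (adjusted p = 5.03e-05), whereas its relative PIAS2 was lower at P10, at 22.2 and 19.9 RPKM against 37.6 and 44.4 RPKM in blastocysts (adjusted p = 0.00469). Blastocysts against fibroblasts gave 8 called lower and 1, PIAS2, higher, with 63.4% and 11% of all genes. With all 4 scalings 2 were lower and 1 higher, with 32.4% and 11% of all genes.

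At later passages 4 of 15 inhibitors and adaptors were called higher than at P10 and 1 lower (list median 0.00 log2, all genes 0.09), with 25.9% and 9.16% of all genes. Of these, 2 higher and 1 lower held under all 4 scalings, with 16.4% and 9.16%. SOCS1, like SOCS3 a cytokine-induced inhibitor of Janus kinases, measured 8.18 to 13.9 RPKM at later passages against 3.50 and 1.08 RPKM at P10 (adjusted p = 0.000824). GRB2, an adaptor towards the RAS pathway, measured 42.5 to 54.1 RPKM at later passages against 32.4 and 32.0 RPKM at P10 (adjusted p = 0.0019). CISH, a related inhibitor of STAT5, measured 0.674 to 1.33 RPKM at later passages against 0.535 and 0.270 RPKM at P10 (adjusted p = 0.0263). SOCS4 was lower, at 6.80 to 11.8 RPKM against 14.2 and 13.2 RPKM at P10 (adjusted p = 0.0136).

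STAT3 target genes were taken from mouse embryonic stem cells or from other cells given IL6 family cytokines. Of 11 tested, 7 were called lower and 1 higher at P10 against fibroblasts (list median -2.46 log2, all genes 0.23), with 21.9% and 35.4% of all genes. All 8 calls held under the 4 scalings, with 20.2% of all genes lower and 24.9% higher. Of the 7 lower genes 2, MYC and BCL3, passed the filter through the fibroblasts alone. MYC, a growth regulator, measured 0.718 and 0.970 RPKM at P10 and 23.3 and 19.7 RPKM in fibroblasts (adjusted p = 5.89e-05). KLF4, a factor of naive pluripotency in the mouse, measured 1.44 and 3.05 RPKM at P10, 37.5 and 36.7 RPKM in blastocysts and 57.9 and 41.9 RPKM in fibroblasts, and was called lower at P10 against both (adjusted p = 9.04e-05 against fibroblasts and 5.01e-05 against blastocysts). BCL3, a nuclear co-regulator, measured 0.028 and 0.363 RPKM at P10 and 9.52 and 6.19 RPKM in fibroblasts (adjusted p = 0.000246). PIM3, a survival kinase, was the gene called higher, at 9.24 and 10.1 RPKM at P10 and 3.43 and 3.39 RPKM in fibroblasts (adjusted p = 0.00149).

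Against blastocysts 3 STAT3 targets were called higher at P10 and 3 lower (list median -0.26 log2, all genes 1.43), with 73% and 7.33% of all genes. Under all 4 scalings 1 was higher and 3 lower, with 30.4% and 7.33% of all genes. TFCP2L1, which in the mouse links LIF to self-renewal, had a listed 0 (line A) and 0.019 RPKM (line B) at P10, measured 6.18 and 4.71 RPKM in blastocysts (adjusted p = 2.45e-05), and was listed at 0 in fibroblasts. KLF5, a factor of epiblast and trophectoderm, measured 7.47 and 3.42 RPKM at P10 and 59.4 and 67.8 RPKM in blastocysts (adjusted p = 8.68e-05). PIM3 was at 0.537 and 0.483 RPKM in blastocysts and was called higher at P10 (adjusted p = 2.79e-05). JUNB, an immediate early gene, measured 3.63 and 6.66 RPKM at P10 and 0.639 and 0.396 RPKM in blastocysts (adjusted p = 0.000894). Blastocysts against fibroblasts gave 7 called lower and 2, TFCP2L1 and KLF5, higher, with 63.4% and 11% of all genes. With all 4 scalings 5 were lower and 2 higher, with 32.4% and 11% of all genes.

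At later passages 7 of 9 tested STAT3 targets were called higher than at P10 and 0 lower, all under 4 scalings (list median 1.12 log2, all genes 0.09). Of all genes 25.9% were called higher, 16.4% under all 4 scalings. Passage and file set cannot be told apart here either, and the part of the markers that moved with them, KRT8 and KRT18 upward among them, was not tested. JUNB measured 31.6 to 50.6 RPKM at later passages against 3.63 and 6.66 RPKM at P10, 2.64 ± 0.14 (SE) log2 above the median gene (adjusted p = 7.53e-07). PIM1, a survival kinase, measured 20.7 to 53.2 RPKM at later passages against 7.23 and 5.41 RPKM at P10, 2.35 ± 0.28 above it (adjusted p = 0.000324). KLF4 measured 8.43 to 16.2 RPKM at later passages against 1.44 and 3.05 RPKM at P10, 2.00 ± 0.22 above it (adjusted p = 0.000166). None of these 3 genes overlapped between the groups, but the share of all genes without overlap was not counted. Later KLF4 values stayed below those of the blastocysts and fibroblasts. MYC, PIM3, BCL6 and TIMP1 were the other 4.

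The genes whose pattern was most like that of each member were named by the highest Pearson correlation of log2(RPKM + 1) over the 14 libraries, among 6252 genes that matched a reference symbol and reached 10 RPKM. The libraries share cultures and scaling, and the values are a description. The closest was NUP98 for LIFR (r = 0.983), S100A10 for STAT3 (r = 0.985), PRRX2 for OSMR (r = 0.994), EPB41L3 for JAK1 (r = 0.955), ANKRD13B for SOCS3 (r = 0.984) and B2M for LIF (r = 0.949). IL6ST, with the least contrast between cell types, had the lowest top correlation, with AKAP11 (r = 0.89).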

How the data were processed

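Per the labels' protocols, total RNA was made into libraries with a TruSeq RNA kit. The authors deposited 1 file of RPKM values per library, without read counts. Per the submitters' processing notes, edgeR was among the tools and UMD3.1 was the build. Aligner, counter and annotation: not given in the sources used here. The 6 control and P10 files list 23159 usable features, the 8 later files 24616, and 18440 names are shared. Depth relative to fibroblast line A was 1 to 1.558 in the first set, and relative to line A at P13 0.7103 to 1.027 in the second.

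Values were tested as log2(RPKM + 1) with limma 3.58.1 in R 4.3.3 (two-sided, mean-variance trend), for genes that reached 1 RPKM in 2 or more of the fitted libraries, calling a Benjamini-Hochberg adjusted p under 0.05 over all genes tested. Separate fits held P10, blastocysts and fibroblasts (6 libraries), the 8 later libraries (line and passage, with a line by passage term for the difference of slopes), and all 10 bESC libraries (line, later against P10, passage). The scalings were as deposited, median-of-ratios, quantile, and without the 2 most abundant features. Whole reads were recovered for 581 of 581 low genes of the later files, within 0.001 of a whole number, and used for counting error only. The procedure was tested on simulated data. From each further list the text names up to 3 called genes per direction and comparison, by smallest adjusted p; some are not reported here. The members and lists were chosen with earlier results of these data known. Positions and sequences are not given here.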

Additional observations from a re-analysis of the deposited data

Results flagged for a closer look

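In line B at later passages, STAT3 at P12 lay apart from the other 3 libraries. It measured 8.79 RPKM, against 9.99, 10.2 and 10.0 RPKM at P24, P35 and P46, and its gap to the nearest was 0.875 of the group's range, above the critical value of Dixon's test for 4 samples. In the same line SOCS3 at P35 lay apart upward, at 14.16 RPKM against 8.16, 8.43 and 7.35 RPKM at P12, P24 and P46, with a gap of 0.841 of the range. The flagged STAT3 value lay close to those of line A at P13 and P23, 8.56 and 8.78 RPKM. Chance alone gives such a gap in about 1 in 20 groups. All 7 members were screened in lines A and B, so a flag can arise by chance.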

How the results depend on the processing

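The counts of called members kept within 1.5 times their reported values in 115 of 122 recomputed counts. These include the comparisons among later passages, where 0 members and at most 2 of 12785 genes were called as reported. Counts there had little room to move, so the figure overstates how steady the other counts were. With a filter at 5 RPKM, which leaves 4 members to test, the counts were 3 (P10 against fibroblasts), 1 (P10 against blastocysts) and 3 (blastocysts against fibroblasts). Leaving out 1 library at a time gave 3 to 5, 2 to 3 and 3 to 5 in these comparisons and 0 to 3 for later passages against P10, where P12 and P13 alone gave 0; where 1 library remained in a group, it was assumed to vary like the others. Changes of single members kept direction and call in 456 of 499 recomputed values and turned direction in 16.

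The turned directions, as fitted log2 changes, were these. At P10 against fibroblasts IL6ST was -0.07 under median-of-ratios scaling and -0.02 under quantile normalization, and -0.36 to 0.70 with 1 library left out. At P10 against blastocysts IL6ST was -1.22 under median-of-ratios scaling, -1.08 under quantile normalization and -0.94 without the 2 most abundant features, and under quantile normalization LIFR was -0.39 and OSMR -0.17. In blastocysts against fibroblasts IL6ST was 1.16, 1.06 and 1.10 and STAT3 was 0.33, 0.16 and 0.24 under the same 3 scalings, while with 1 library left out IL6ST ran from -0.79 to 0.27 and LIFR from -0.14 to 0.26. The cause was not tested.

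The letters A and B name separate pools, fibroblast lines and bESC lines and were not used to pair samples. Same-lettered libraries deviated with correlations of -0.0795, -0.099 and 0.187. With 2 libraries in each group, these values can neither show nor exclude a shared batch. With the letter as a replicate block the counts were 5, 3 and 5, as without it. The P10 and control libraries give no read counts, so counting error there is unknown.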

Other observations

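Some further genes of the IL6 family were measured in the later libraries alone and were named after their values were seen. IL27RA, a receptor that signals through IL6ST, measured 9.08 to 17.4 RPKM in line A and 8.87 to 11.9 RPKM in line B. The IL6 gene itself measured 0.436 to 1.92 RPKM in line A and 0.821 to 1.87 RPKM in line B.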
